A study of Homo sapiens with 12 samples.

Results

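The platinum and copper transporters are a set of 10 genes chosen by symbol: the copper carriers SLC31A1 and SLC31A2, the copper chaperone ATOX1, the copper-pumping ATPases ATP7A and ATP7B, and the multidrug resistance proteins ABCC1 to ABCC5. Of these, 8 had a probe with that gene name, 12 probes in all of the 48803 on the array, while ABCC1 and ABCC3 had none by that name and were not analysed here. A gene was tested where a probe exceeded a signal floor of 100 on both arrays of at least 1 group. The floor left 9 of the 12 probes and 7 of the 8 genes, and it left 9808 genes over the whole array. RNA came from U2OS cells, a human osteosarcoma line, in 6 groups of 2 Illumina arrays. The cells were transfected with a control siRNA (siCtl), with siRNAs to the co-repressor NCoR (siNCoR) or with siRNAs to the co-repressor SMRT (siSMRT), each target being hit by a mix of 3 siRNAs, and 2 days later received 100 µM cisplatin (CDDP) for 6 h or no drug, which the labels call no-treatment and the study vehicle. The questions put to the transporters were whether their mRNAs moved with CDDP and whether they depended on either co-repressor. All groups are 1 cell line, and the knock-down itself was not analysed here.

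Copper enters human cells mainly through SLC31A1 (CTR1), is handed by ATOX1 to ATP7A and ATP7B in the trans-Golgi network, and leaves through those 2 pumps. Cisplatin shares parts of that route: SLC31A1 has been linked to its uptake, the ATPases to its sequestration and export, and the ABCC proteins, ATP-driven pumps for organic anions, to the export of its glutathione conjugates. SLC31A2 (CTR2) sits largely on internal vesicles and has been linked to lower platinum accumulation. ATP7A and ATP7B are the genes of Menkes and Wilson disease.

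The 250 bases before the annotated start were read for the 7 members that the RefSeq promoter table holds (GRCh38.p14, 9 promoters). The sequences of SLC31A1, which rose with CDDP in siCtl cells, and of ATP7A and ABCC4, which fell, are shown 5′ to 3′ on the gene's strand, at chr9:113221294-113221543 (+), chrX:77910443-77910692 (+) and chr13:95301452-95301701 (−). ATP7A passed the floor only through siCtl cells with vehicle, so its fall there was built into its selection. Capitals mark matches, on either strand, to the GC box GGGCGG bound by SP1-type factors, to the core of the metal response element bound by MTF1 (TGCACNC or TGCGCNC), or to the AP-1 site TGACTCA. No motif here contains another.
SLC31A1: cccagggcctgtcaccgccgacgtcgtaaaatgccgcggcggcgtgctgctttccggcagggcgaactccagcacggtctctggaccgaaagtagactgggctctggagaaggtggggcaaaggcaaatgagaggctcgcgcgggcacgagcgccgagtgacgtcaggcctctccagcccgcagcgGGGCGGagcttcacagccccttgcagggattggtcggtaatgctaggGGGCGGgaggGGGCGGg
ATP7A: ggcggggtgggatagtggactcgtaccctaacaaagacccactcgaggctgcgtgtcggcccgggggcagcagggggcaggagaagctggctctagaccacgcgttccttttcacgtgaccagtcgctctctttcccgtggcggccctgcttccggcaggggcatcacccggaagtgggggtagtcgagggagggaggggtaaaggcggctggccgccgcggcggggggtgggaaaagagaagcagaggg
ABCC4: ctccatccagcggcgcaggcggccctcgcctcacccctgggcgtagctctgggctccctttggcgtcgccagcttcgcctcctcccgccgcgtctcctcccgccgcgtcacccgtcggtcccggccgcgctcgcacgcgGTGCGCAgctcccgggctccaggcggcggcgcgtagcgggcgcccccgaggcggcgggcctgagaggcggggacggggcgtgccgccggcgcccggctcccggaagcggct
The SLC31A1 window held 3 GC boxes, the ATP7A window no match to any of the motifs, and the ABCC4 window 1 metal response element core. Over 35116 promoters of the same length, 42.64% held a GC box, 24.83% the metal response element core and 4.203% the AP-1 site. Of the other promoters of members, 2 of the 3 ATP7B promoters held 3 GC boxes each, 1 of these also held 2 metal response element cores, and the third held 1 AP-1 site. ATOX1 and ABCC5 held 1 GC box each and no AP-1 site. ATOX1 also held 2 metal response element cores, and ABCC2 held 1 such core. A match is a description of these letters and no statement about binding.

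Array quality was even. Median scanner signals lay between 54.02 and 65.3, the 2 arrays of a group correlated at 0.994 to 0.996 over the genes tested, and 5 of 7 osteoblast and mesenchymal markers passed the floor, VIM at 21770 to 25380 and COL1A1 at 1401 to 1947, while SP7 and COL1A2 did not. Of 6 markers of other cell types, KRT5, CDH1, PTPRC and ALB did not pass, PECAM1 lay at 88.62 to 111 and the epithelial marker EPCAM at 374.8 to 858. The part of EPCAM in the results was not tested. Levels are given below as log2 intensity after background correction and quantile normalization, so a difference of 1 is a doubling.

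CDDP changed 5 of the 7 tested members in siCtl cells: the 2 SLC31 carriers rose, and both copper ATPases and ABCC4 fell (limma with Benjamini-Hochberg adjustment over 9808 genes, called where the adjusted p was under 0.05). ABCC4 fell by 0.56 ± 0.09 on the log2 scale (SE, n = 2 arrays a group), ATP7A by 0.52 ± 0.16 and ATP7B by 0.37 ± 0.10, while SLC31A2 rose by 0.53 ± 0.10 and SLC31A1 by 0.37 ± 0.12. CDDP moved much of the transcriptome, with 37.6% of all tested genes called in this comparison (18.2% higher and 19.4% lower). ATP7A entered the test only through siCtl cells with vehicle, and without it the count was 4 of 6. The count in siNCoR cells was 2 of 7, against 40.7% of all genes, and in siSMRT cells 1 of 7, against 42.9%. Over the mean of the 3 siRNA groups 6 of 7 members were called, 2 higher and 4 lower, against 64.6% of all genes (34.4% higher and 30.2% lower), and without ATP7A 5 of 6. The median change of the 7 members was -0.15 (siCtl), -0.16 (siNCoR) and -0.09 (siSMRT), beside 0.03 in each for all genes. These medians include ATP7A, whose fall from siCtl cells with vehicle was built into its selection. They were not computed without it, so no shift of the members is read from them. The probes see the RNA of the whole culture, so less RNA per cell and fewer cells with that RNA cannot be told apart.

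**Figure D1:**
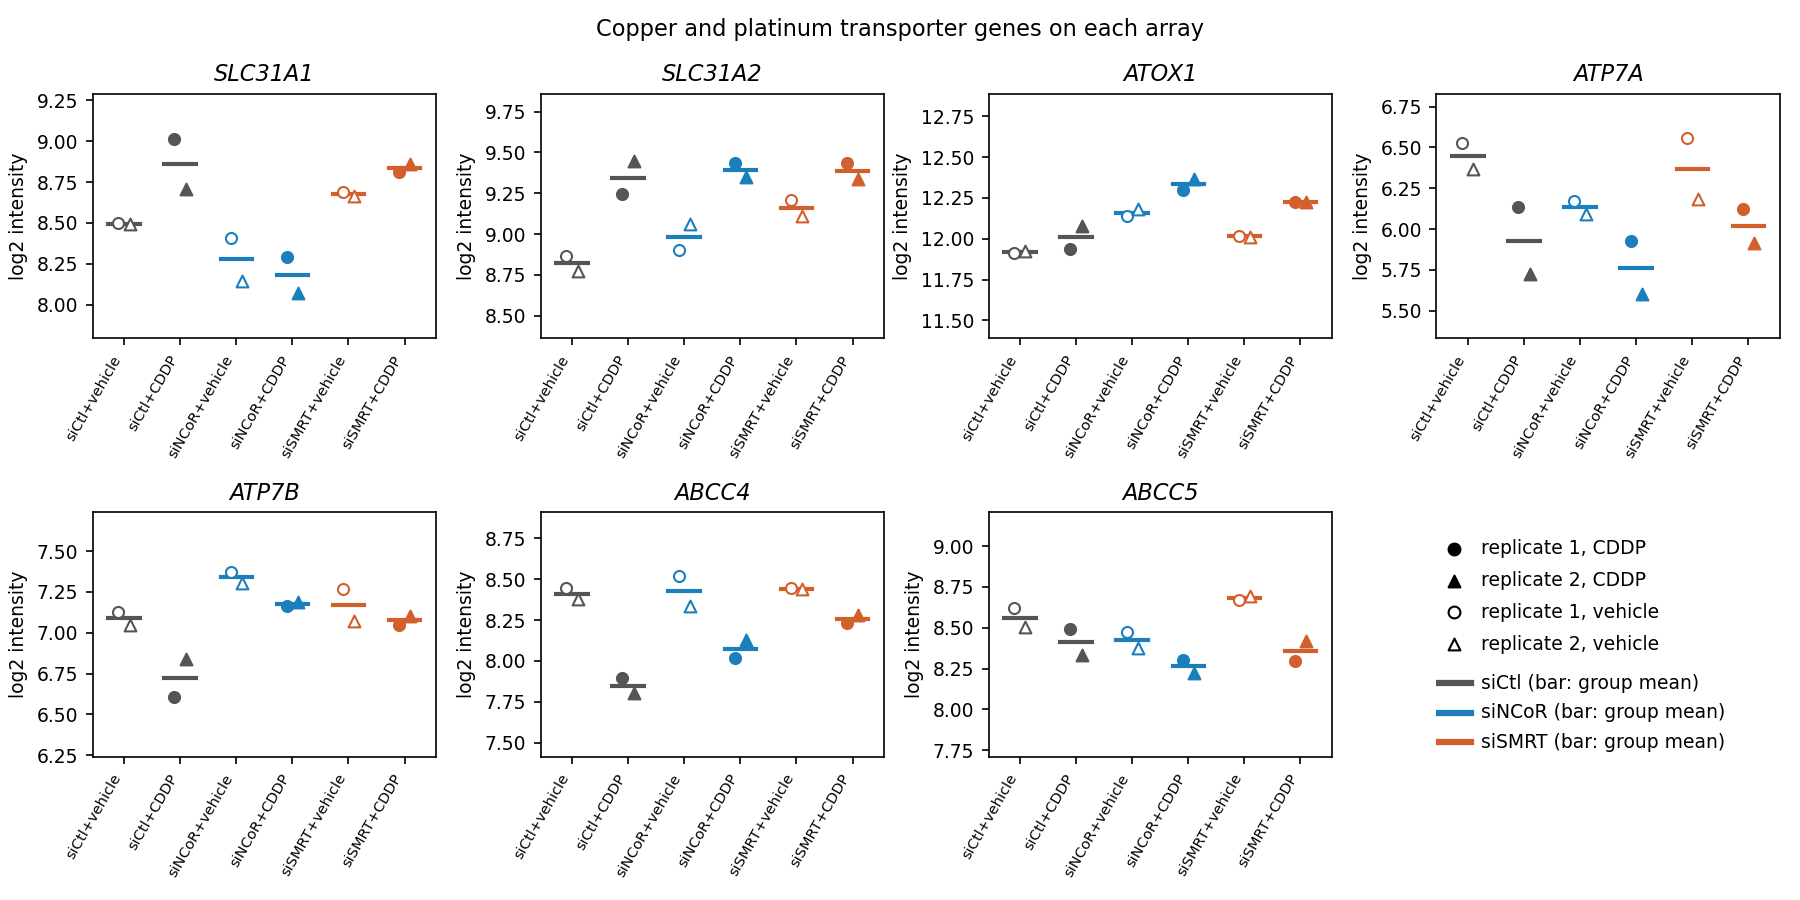
Log2 intensity (vertical axes, each spanning 1.5 units) of the 7 tested transporter genes on each of the 12 arrays, by siRNA and treatment (horizontal axes); circles are replicate 1, triangles replicate 2, open symbols vehicle, filled symbols CDDP, and bars the mean of the 2 arrays. SLC31A2 lies between 9.25 and 9.45 on all CDDP arrays and between 8.78 and 9.21 on all vehicle arrays.

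The uptake gene SLC31A1 (probe ILMN_1804562) measured 8.50 and 8.49 in siCtl cells with vehicle, and 9.02 and 8.71 with CDDP. In siNCoR cells it measured 8.41 and 8.15 with vehicle and 8.29 and 8.07 with CDDP. In siSMRT cells it measured 8.69 and 8.66 with vehicle and 8.81 and 8.86 with CDDP. The siNCoR arrays were the 4 lowest of the 12 and all lay below both siCtl vehicle arrays. The share of all genes with such an order was not counted. The CDDP arrays lay above the vehicle arrays in siCtl and siSMRT cells, an absence of overlap that 36.9% and 39.7% of all genes showed in that direction, and the siNCoR groups overlapped. The CDDP change was called in siCtl cells alone (0.37, 95% interval 0.10 to 0.64, adjusted p = 0.0347). Without siCtl+CDDP replicate 1 the change was 0.21 (adjusted p = 0.268), and without either siCtl vehicle array it lost its call at 0.37 and 0.36 (adjusted p = 0.106 and 0.112). It was -0.10 in siNCoR (-0.37 to 0.17, adjusted p = 0.557) and 0.16 in siSMRT cells (-0.11 to 0.43, adjusted p = 0.311). The mean over the siRNA groups was 0.14 ± 0.07 (adjusted p = 0.0957 and, with the replicate number as a block, 0.0461). With arrays scaled to the median of all their probes instead of quantile-normalized, the siCtl change was 0.20 (adjusted p = 0.399) and the mean -0.002. The siCtl call was also lost with the authors' values (0.30, adjusted p = 0.0574), with no filter on dim probes (0.0756) and with only the arrays compared (0.0534).

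SLC31A2 (ILMN_1758938) measured 8.87 and 8.78 in siCtl cells with vehicle and 9.25 and 9.45 with CDDP. It measured 8.90 and 9.06 against 9.43 and 9.35 in siNCoR cells, and 9.21 and 9.11 against 9.44 and 9.34 in siSMRT cells. The 6 CDDP arrays all lay above the 6 vehicle arrays, which held for 12.9% of all genes. The vehicle level differed among siRNAs by more than the CDDP level did: group means ran from 8.82 to 9.16 with vehicle and from 9.35 to 9.39 with CDDP. The rise was called in siCtl (0.53, adjusted p = 0.00182) and siNCoR cells (0.41 ± 0.10, adjusted p = 0.00789) and missed the threshold in siSMRT cells (0.23, 95% interval 0.00 to 0.45, adjusted p = 0.0934). The siNCoR call was lost without siNCoR+vehicle replicate 1 (0.33, adjusted p = 0.0720). Under median scaling over all probes the changes in siCtl and siNCoR cells were 0.39 (adjusted p = 0.0687) and 0.21 (adjusted p = 0.354). The mean rise was 0.39 ± 0.06 (adjusted p = 0.000119). SLC31A2 and SLC31A1 lie on chromosome 9 in the RefSeq annotation of GRCh38.p14, at 113151007 to 113164140 and 113221544 to 113264492.

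ATOX1 (ILMN_1670609), the chaperone that carries copper to the ATPases, measured 11.91 and 11.93 with vehicle and 11.94 and 12.08 with CDDP in siCtl cells. It measured 12.14 and 12.18 against 12.30 and 12.37 in siNCoR cells, and 12.02 and 12.01 against 12.22 and 12.23 in siSMRT cells. Within each siRNA the CDDP arrays were the higher, by less than the distance between the siCtl and siNCoR levels. They were also the higher for 36.9% (siCtl), 37.3% (siNCoR) and 39.7% (siSMRT) of all genes. No single siRNA group gave a call: the changes were 0.09 (adjusted p = 0.447), 0.17 (adjusted p = 0.130) and 0.21 (adjusted p = 0.0660, or 0.0465 with the replicate block). The mean change of 0.16 ± 0.05 was called (adjusted p = 0.0148, or 0.0514 with no filter on dim probes). ATOX1 was the member most sensitive to scaling: with each array centred on the median of the probes past the floor, the changes were 0.30, 0.42 and 0.53, all called.

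ATP7A (ILMN_1808115) was dim: its signal was 71.12 to 116.9 and exceeded the floor on 3 of 12 arrays. It entered the test through siCtl cells with vehicle alone, where both arrays passed, so a fall from that group was built into its selection and neither the siCtl call below nor the mean that includes it lends support. It measured 6.53 and 6.37 with vehicle and 6.13 and 5.72 with CDDP in siCtl cells. It measured 6.17 and 6.09 against 5.93 and 5.60 in siNCoR cells, and 6.56 and 6.18 against 6.12 and 5.91 in siSMRT cells. The CDDP arrays lay below the vehicle arrays within every siRNA, as they did for 32.1% (siCtl), 33.6% (siNCoR) and 35.0% (siSMRT) of all genes. The change was called in siCtl cells (-0.52, adjusted p = 0.0256), and the call was lost without siCtl+vehicle replicate 1 (-0.43, adjusted p = 0.140) or siCtl+CDDP replicate 2 (-0.32, adjusted p = 0.221). It was -0.37 in siNCoR (adjusted p = 0.0921) and -0.35 in siSMRT cells (adjusted p = 0.102). With the replicate block, the adjusted p was 0.00776 and 0.00965. The mean change was -0.41 ± 0.09 (adjusted p = 0.00223).

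ATP7B had 2 probes. ILMN_1722056, which stands for the gene, measured 7.13 and 7.05 with vehicle and 6.61 and 6.84 with CDDP in siCtl cells. It measured 7.37 and 7.31 against 7.17 and 7.19 in siNCoR cells, and 7.27 and 7.07 against 7.04 and 7.10 in siSMRT cells. The 2 siCtl arrays with CDDP were the lowest of all 12, an order not counted over all genes, and the siSMRT groups overlapped. The fall was called in siCtl cells (-0.37, adjusted p = 0.0163) and lost without siCtl+vehicle replicate 1 (-0.32, adjusted p = 0.0939) or siCtl+CDDP replicate 1 (-0.25, adjusted p = 0.140). It was -0.16 in siNCoR (adjusted p = 0.233) and -0.09 in siSMRT cells (adjusted p = 0.491), with a mean of -0.21 ± 0.06 (adjusted p = 0.00960). The second probe, ILMN_1696223, stayed at 49.46 to 62.25 on every array, under the floor, and was not tested.

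ABCC4 (MRP4), an exporter of cyclic nucleotides and other organic anions, had the smallest p of the 7 members for CDDP in siCtl cells and in the mean. Its main probe ILMN_1788457 measured 8.44 and 8.38 with vehicle and 7.90 and 7.80 with CDDP in siCtl cells. It measured 8.52 and 8.34 against 8.02 and 8.13 in siNCoR cells, and 8.45 and 8.44 against 8.24 and 8.28 in siSMRT cells. All 6 CDDP arrays lay below all 6 vehicle arrays, which 14.2% of all genes did. Vehicle means were 8.41, 8.43 and 8.44 under siCtl, siNCoR and siSMRT, and CDDP means 7.85, 8.08 and 8.26. The fall was 1.48-fold in siCtl (adjusted p = 0.000637) and 1.28-fold in siNCoR cells (adjusted p = 0.0105), and the siSMRT change of -0.18 missed the threshold (95% interval -0.39 to 0.02, adjusted p = 0.139). The siCtl call held in 22 of 22 settings that refitted the data, and the siNCoR call in 20, being lost without siNCoR+vehicle replicate 1 (-0.27, adjusted p = 0.101) or siNCoR+CDDP replicate 1 (-0.30, adjusted p = 0.0643). A second probe, ILMN_2194009, measured 8.26 to 8.54 on the vehicle arrays and 7.62 to 8.21 on the CDDP arrays, with changes of -0.63, -0.43 and -0.29 in the same order of siRNAs. The 2 probes share their libraries and are no replicates of each other.

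ABCC5 (MRP5), which also carries cyclic nucleotides, had 3 probes. The brightest, ILMN_1706531, measured 8.62 and 8.50 with vehicle and 8.50 and 8.33 with CDDP in siCtl cells. It measured 8.48 and 8.38 against 8.30 and 8.22 in siNCoR cells, and 8.67 and 8.69 against 8.30 and 8.42 in siSMRT cells. The CDDP arrays lay below the vehicle arrays within every siRNA, as they did for 32.1% (siCtl), 33.6% (siNCoR) and 35.0% (siSMRT) of all genes. The siCtl groups were barely apart (8.505 against 8.495 at their nearest) and the siSMRT groups lay furthest apart. The fall was called in siSMRT cells (-0.32 ± 0.10, adjusted p = 0.0186) and in the mean (-0.21 ± 0.06, adjusted p = 0.00554), but not in siCtl (-0.15, adjusted p = 0.254) or siNCoR cells (-0.16, adjusted p = 0.198). The siSMRT call was lost without either siSMRT vehicle array (adjusted p = 0.0677 and 0.0774) and without siSMRT+CDDP replicate 1 (-0.26, adjusted p = 0.122). The second probe, ILMN_1651964, gave -0.20 in siSMRT cells (adjusted p = 0.242) and a mean of -0.16 (adjusted p = 0.0918), neither called, and the third, ILMN_2302358, lay under the floor at 52.67 to 69.05. ABCC2 (MRP2), the apical pump for conjugated anions, lay at 55.88 to 65.58 on all arrays, under the floor, and had no test.

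**Figure D2:**
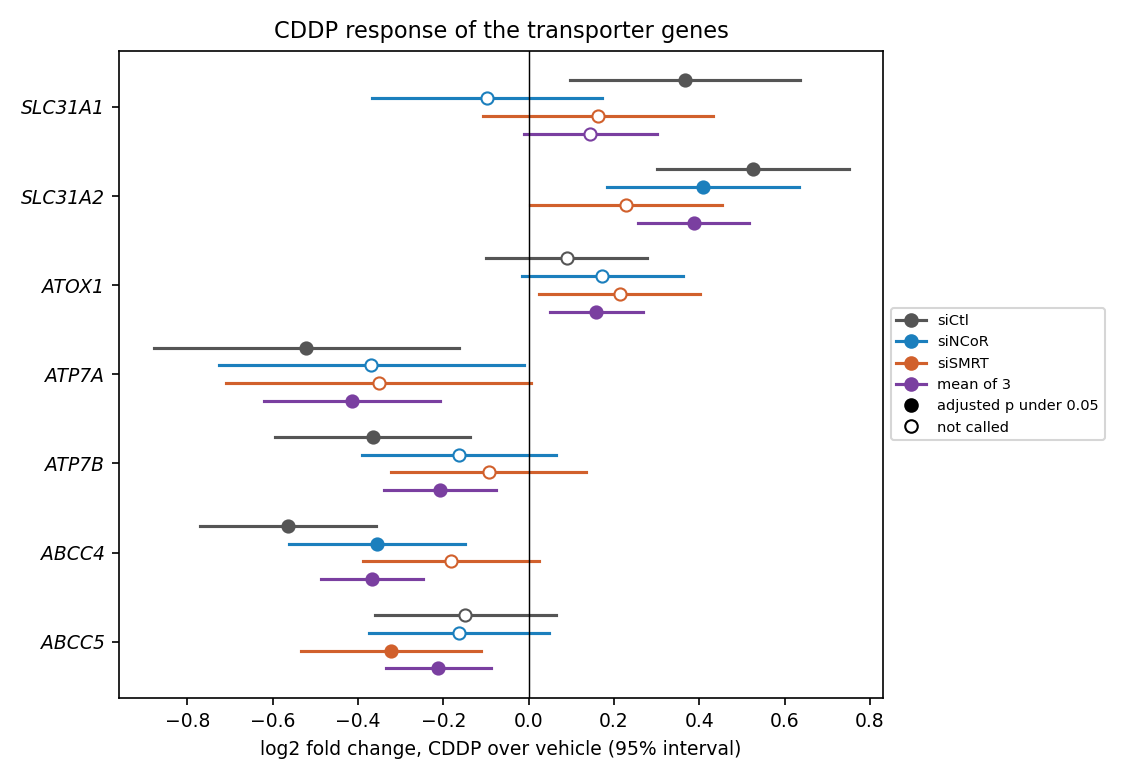
Log2 fold change of CDDP over vehicle (horizontal axis) for the 7 tested transporter genes, in siCtl, siNCoR and siSMRT cells and as the mean of the 3; lines are 95% intervals of the limma fit, and filled points have an adjusted p under 0.05. The means of SLC31A2 (0.39) and ATOX1 (0.16) lie above 0, and those of ATP7A, ATP7B, ABCC4 and ABCC5 (-0.41 to -0.21) below it.

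The members that fell are long genes, though a fall of ATP7A was built into its selection and lends no support here. In the RefSeq annotation ABCC4 spans 281.6 kb, ATP7A 139.7 kb, ABCC5 97.95 kb and ATP7B 79.46 kb, while SLC31A1 spans 42.95 kb, ATOX1 15.81 kb and SLC31A2 13.13 kb. All tested genes with a span were cut into 10 bins of equal number, from short to long, and the median of the mean CDDP response fell from 0.20 in the first bin (up to 4.799 kb) to -0.46 in the last (149.3 kb or more), with 9.888% and 71.84% of those bins called lower. ABCC4 belonged to the last bin and at -0.37 lay above its median. ATP7A and ABCC5 belonged to the bin before, whose median was -0.28, ATP7A lying under it at -0.41 and ABCC5 above it at -0.21. ATP7B (-0.21) belonged to the bin with a median of -0.17. SLC31A1 (0.14) and SLC31A2 (0.39) lay above the medians of their bins (-0.04 and 0.18), and ATOX1 (0.16) was near its own (0.17). The part of span in the members' changes was not tested.

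**Figure D3:**
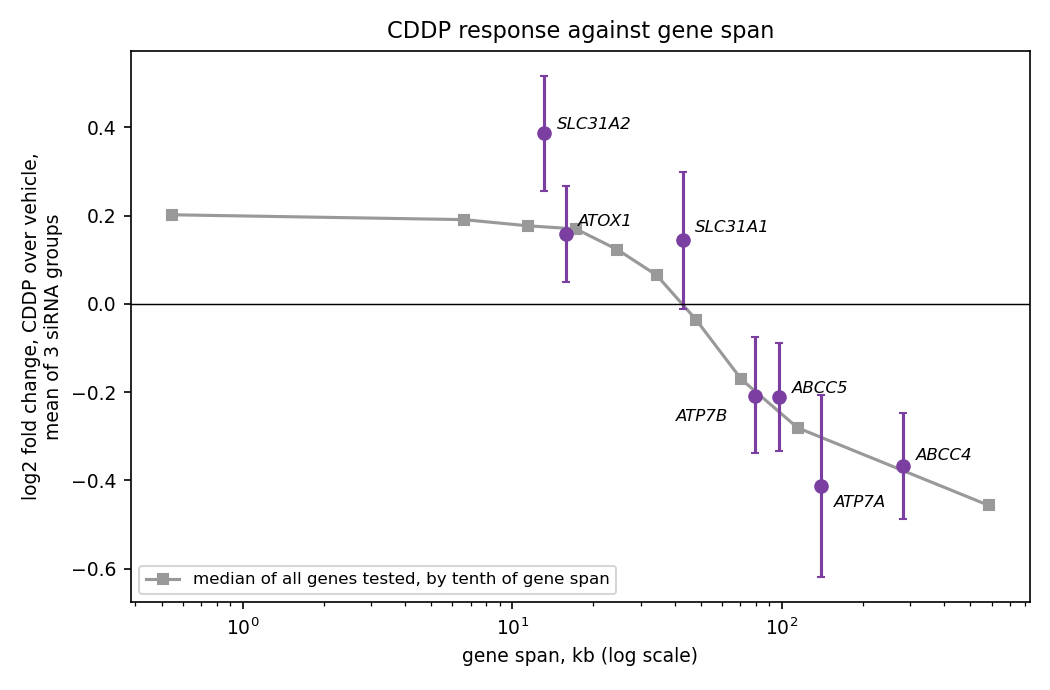
Mean CDDP response over the 3 siRNA groups (vertical axis, log2 fold change) against gene span in kb (horizontal log axis); grey squares are medians of all tested genes in 10 bins by span, each drawn at the geometric middle of its bin, and purple points are the transporter genes with 95% intervals. The grey line runs from 0.20 to -0.46, with the 4 members over 79 kb below 0 and the 3 under 43 kb above 0. ATP7A, among the former, entered the test only through siCtl cells with vehicle, which its mean includes.

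Without CDDP, 1 transporter was called against siCtl, SLC31A2 under siSMRT. The comparison of siNCoR against siCtl with vehicle called 0 of 7 members by limma (5.26% of all genes were called). An unadjusted p under 0.05 was reached by 2 of 7, and by 1926 of all 9808 genes. These 2 were ATOX1 at 0.24 (95% interval 0.05 to 0.43, adjusted p = 0.144) and ATP7B at 0.25 (0.02 to 0.48, adjusted p = 0.209). siSMRT against siCtl with vehicle called 1 of 7, against 15.8% of all genes: SLC31A2 was higher by 0.34 ± 0.10 (adjusted p = 0.0437). That call was lost without any one of the siCtl or siSMRT vehicle arrays, with adjusted p of 0.0935 to 0.218, and without either siSMRT+CDDP array (0.0576 and 0.0581).

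With CDDP, SLC31A1 was lower under siNCoR, ATP7B higher under both siRNAs, ATOX1 higher under siNCoR and ABCC4 higher under siSMRT. Under siNCoR 3 of 7 were called, against 6.60% of all genes: SLC31A1 was 1.61-fold lower (-0.68 ± 0.12, adjusted p = 0.00814), ATP7B was higher by 0.45 ± 0.10 (adjusted p = 0.0249) and ATOX1 higher by 0.33 ± 0.09 (adjusted p = 0.0444). The SLC31A1 call was lost without siCtl+CDDP replicate 1 (-0.53, adjusted p = 0.0636) or siNCoR+CDDP replicate 2 (-0.57, adjusted p = 0.0710). The ATP7B call was lost without siCtl+CDDP replicate 1 (0.34, adjusted p = 0.165) or either siNCoR+CDDP array (adjusted p = 0.0652 and 0.117). The ATOX1 call was lost in 12 of 12 fits that left out 1 array, with adjusted p of 0.0593 to 0.221. Under siSMRT 2 of 7 were called, against 17.3%: ABCC4 was higher by 0.41 ± 0.09 (adjusted p = 0.0133) and ATP7B by 0.35 ± 0.10 (adjusted p = 0.0382). Without siCtl+CDDP replicate 1 the ATP7B value was 0.24 (adjusted p = 0.248), and it was not called without either siSMRT+CDDP array (0.106 and 0.169) or either siNCoR+vehicle array (0.0507 and 0.0512). The ABCC4 call was lost without siCtl+CDDP replicate 2 (0.36, adjusted p = 0.0751) or either siSMRT+CDDP array (0.0570 and 0.0793). Its second probe gave 0.43 (adjusted p = 0.0336). Under median scaling over all probes, of these 5 calls only that of SLC31A1 held. The siNCoR and siSMRT comparisons share their siCtl arrays.

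The co-repressors were also set against each other, a contrast without the siCtl groups. The siCtl arrays still entered the normalization and the shared estimate of the spread. SLC31A1 was higher in siSMRT than in siNCoR cells, by 0.40 ± 0.12 with vehicle (adjusted p = 0.0430, 18.9% of all genes called) and by 0.66 ± 0.12 with CDDP (adjusted p = 0.00385, 16.2% called). The second of these held in 22 of 22 settings. The first was lost without siNCoR+vehicle replicate 2 (0.27, adjusted p = 0.279), without either siSMRT vehicle array (0.159 and 0.131), and, narrowly, without either siCtl vehicle or either siSMRT+CDDP array (0.0554 to 0.0581). No other member was called in either comparison.

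**Figure D4:**
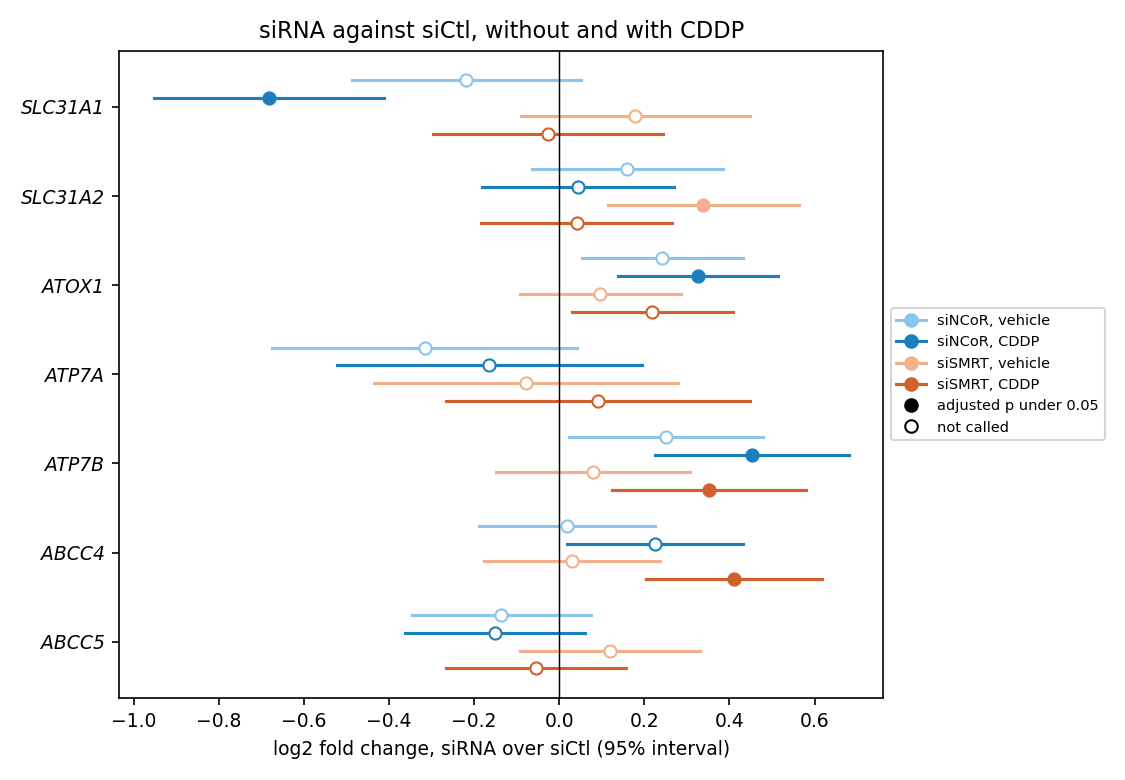
Log2 fold change of siNCoR (blue) and siSMRT (orange) over siCtl (horizontal axis) for the 7 tested transporter genes, with vehicle (pale) and with CDDP (dark); lines are 95% intervals of the limma fit, and filled points have an adjusted p under 0.05. SLC31A1 under siNCoR with CDDP (-0.68) lies furthest from 0.

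Calls in one siRNA group and not in another do not show that the CDDP responses differ, so the difference itself was tested. By limma 0 of 7 members passed in any of the 3 differences, with at most 1 of 9808 genes passing (0.0102%, siSMRT minus siCtl) and 472, 896 and 334 genes at an unadjusted p under 0.05. The ABCC4 response differed by 0.38 between siSMRT and siCtl cells (95% interval 0.09 to 0.67, unadjusted p = 0.0148, adjusted p = 0.451). The SLC31A1 response differed by -0.46 between siNCoR and siCtl cells (-0.85 to -0.08, unadjusted p = 0.0211, adjusted p = 0.976). For SLC31A2 the siSMRT minus siCtl difference was -0.30 (-0.62 to 0.02), and for ATP7B 0.27 (-0.05 to 0.59), so differences of about the size of the responses lie inside these intervals. These 2-array groups leave 6 residual degrees of freedom, and the replicates, called biological duplicates in the study, measure the spread between cultures of this line alone.

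Other genes of copper handling moved in both directions. Of 24 listed, 20 were tested, and CDDP raised 6 and lowered 3 in siCtl, 5 and 4 in siNCoR, 3 and 3 in siSMRT cells, and 8 and 3 in the mean, with medians of 0.11, 0.14, 0.12 and 0.13. These are 9, 9, 6 and 11 of 20 called, beside 37.6%, 40.7%, 42.9% and 64.6% of all genes. The 4 of smallest p for the mean were SLC11A2, COX11, SP1 and STEAP1. SLC11A2 (DMT1), an importer of iron and other divalent metals, measured 10.64 and 10.53 with vehicle and 9.77 and 9.52 with CDDP in siCtl cells, 10.15 and 10.13 against 8.94 and 8.82 in siNCoR cells, and 10.70 and 10.58 against 9.71 and 9.69 in siSMRT cells. Its mean change was -1.05 ± 0.06 (adjusted p = 2.71e-08), larger than that of any of the 7 members. COX11, which inserts copper into cytochrome c oxidase, rose from 6.70 to 7.09 over the vehicle arrays to 7.44 to 7.63 over the CDDP arrays (0.68 ± 0.05, adjusted p = 2.42e-07). SP1, a zinc-finger activator that binds GC boxes, had a normalized signal of 304.6 to 439.7 on the vehicle and 181.5 to 278 on the CDDP arrays, a fall (-0.67 ± 0.08, adjusted p = 9.97e-06). STEAP1, of a family that includes metal reductases, rose by 0.39 ± 0.05 (adjusted p = 4.95e-05), and with vehicle it was higher than in siCtl cells both in siNCoR (0.39 ± 0.09, adjusted p = 0.0336) and in siSMRT cells (0.72 ± 0.09, adjusted p = 0.000657).

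Among 14 other carriers linked to platinum, 12 had a named probe and 9 were tested. CDDP raised 1 and lowered 2 in siCtl and in siNCoR cells, raised 1 and lowered 4 in siSMRT cells, and raised 1 and lowered 5 in the mean, whose median was -0.24. These are 3, 3, 5 and 6 of 9, beside the same shares of all genes. The riser was LRRC8E, a subunit of volume-regulated anion channels: it measured 7.59 to 7.93 with vehicle and 8.24 to 8.69 with CDDP (0.74 ± 0.09, adjusted p = 1.64e-05). Its channel partners LRRC8B (-0.41 ± 0.08, adjusted p = 0.00058) and LRRC8A, the obligatory subunit (-0.40 ± 0.10, adjusted p = 0.00305), fell. ATP11B, a phospholipid flippase linked to cisplatin resistance, fell by 0.67 ± 0.07 on the log2 scale (adjusted p = 3.64e-06), and was lower in siSMRT than in siCtl cells with vehicle as well (-0.89 ± 0.12, adjusted p = 0.000674). Of 7 further ABCC genes, 5 had a named probe and 0 passed the floor, so none was tested.

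The genes whose pattern over the 12 arrays was most like that of each member called in siCtl cells were found by Pearson correlation of log2 intensity, as a description: all 12 arrays share the CDDP and siRNA groups, and no p is given. RFC5 (0.9319) and CUL4B (0.9277) were nearest to SLC31A1, SCO2 (0.9653) and PLPBP (0.9547) to SLC31A2, CEP55 (0.9442) and CEP350 (0.9398) to ATP7A, MRPS28 (0.9356) and STXBP6 (0.9321) to ATP7B, and NAV2 (0.9694) and PID1 (0.9625) to ABCC4. SCO2, a copper chaperone of mitochondrial cytochrome c oxidase, is on the copper-handling list.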

How the data were processed

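Total RNA of U2OS cells was measured on 12 Illumina bead arrays. The intensity values used are the linear probe signals that the authors deposited. The submitters' notes name BeadStudio, with its version not given in the sources used here. The signals show no normalization between arrays. A second deposited table, the authors' own processed intensity values, served as an alternative.

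In limma 3.58.1 (R 4.3.3), signals were background-corrected by normexp (saddle-point, offset 16), quantile-normalized and put on a log2 scale. No detection p or control probes were used. The floor of 100 was applied to normalized signal without background correction, and required on both arrays of at least 1 group. Where a gene kept several probes, the one with the highest mean stands for it. Probe names came from GEO's platform annotation, with symbols updated through RefSeq: 27578 of 48803 probes name 1 gene. The model had 1 coefficient per group (6 residual degrees of freedom), with Benjamini-Hochberg adjustment over 9808 genes in each of 13 comparisons. The code was tested on simulated data.

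Named in the text are all members with every probe, up to 4 genes of smallest p for the mean CDDP response from each list, and the 2 genes nearest to each member called in siCtl cells. The members and lists were chosen with earlier results of these data known. Same-numbered replicates deviated together in 15 of 15 pairs of groups (correlations 0.204 to 0.420), so the numbers pair arrays, and the replicate number as a block is given where it changes a call. Spans and promoters are from RefSeq on GRCh38.p14, with spans matched by symbol. Alternatives covered background, offset, normalization, filters, probes, arrays fitted, block, thresholds and each array left out. The number of arrays limits the precision. Figures were drawn with matplotlib 3.10.9 under Python 3.11.15.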

Additional observations from a re-analysis of the deposited data

How the results depend on the processing

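No member's change that was called reversed its direction under any alternative; of 910 member values under alternatives that kept all arrays, 853 kept direction and side of the threshold, and of 1092 with 1 array left out, 1003 did. These totals include results that were not called in the text. A call was lost in 28 of the 910 and 51 of the 1092 values, and gained in 13 and 4. Counts of members called in the text were 5 (siCtl), 2 (siNCoR), 1 (siSMRT) and 6 (mean) for CDDP. With a fold cut-off of 1.5 all of these became 0, by construction. With the authors' values, no filter on dim probes or only the arrays compared, the siCtl count was 4, SLC31A1 being lost, and with no filter the count in the mean was 5, ATOX1 being lost. Of all genes, 37.1%, 17.14% and 33.83% were called in siCtl cells under these settings, and 35.69% in the mean with no filter. Median scaling over all probes of an array gave 3 in siCtl and 2 in siSMRT cells, against 27.99% and 34.39% of all genes. Median scaling over the probes past the floor, chosen after seeing the data, gave 4 in siSMRT cells, against 50.77%. In siSMRT cells the authors' values gave 2, no filter on dim probes 0 and the replicate block 3 (with ATP7A and ATOX1). The shares of all genes called there were 42.78%, 19.91% and 50.71%. An adjusted p under 0.2 gave 5 in siNCoR and 5 in siSMRT cells, where 5854 and 6093 of all 9808 genes passed it. Leaving out 1 array gave 2 to 5 in siCtl (2 without siCtl+vehicle replicate 1), 0 to 2 in siNCoR (0 without siNCoR+vehicle replicate 1), 0 to 1 in siSMRT cells and 6 to 7 in the mean.

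For siNCoR against siCtl with vehicle the count of 0 became 1 at an adjusted p under 0.2 (ATOX1), which 1548 of 9808 genes passed. For siSMRT against siCtl with vehicle the count of 1 became 0 under either median scaling, the authors' values, no filter, a fit of only the arrays compared and the fold cut-off. With CDDP, the count of 3 for siNCoR became 1 under median scaling, no filter and the fold cut-off and 0 with only the arrays compared, and the count of 2 for siSMRT became 1 with an offset of 50, no filter or only the arrays compared and 0 under median scaling or the fold cut-off. For siSMRT against siNCoR with vehicle the count of 1 became 0 under median scaling, no filter and the fold cut-off. It became 2 at an adjusted p under 0.2, which 3638 of 9808 genes passed. With 1 array left out these counts ran from 0 to 0, 0 to 1, 0 to 2, 0 to 2 and 0 to 1 in that order, 1 to 1 for siSMRT against siNCoR with CDDP, and 0 to 0 for each difference in response. The replicate block also called ATP7A in siNCoR cells and SLC31A1 in the mean, and it changed no other call of a member.

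Scaling set the balance of directions. Of all genes called for CDDP in siCtl cells 48.3% were higher in the text's values, 26.08% under median scaling over all probes and 58.99% over the probes past the floor, with medians of all genes of 0.03, -0.06 and 0.11. In siNCoR cells the shares were 48.0%, 18.29% and 58.8%, with medians of 0.03, -0.11 and 0.11. The same shares were 49.64%, 48.06% and 61.45% in siSMRT cells, 53.2%, 39.03% and 62.73% for the mean, and 45.97%, 14.81% and 50.63% for siSMRT against siCtl with vehicle. Scaling over all probes also moved the share from 53.01% to 35.94% for siNCoR against siCtl with CDDP, and for siSMRT against siNCoR from 44.27% to 19.44% with vehicle and from 44.93% to 59.51% with CDDP. Medians of the differences in response moved by up to 0.17. The cause was not tested. Dim probes such as ATP7A and the unused probes of ATP7B, ABCC2 and ABCC5 lie near background, which limits what their values can show.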

Other observations

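ABCB1 (P-glycoprotein), a drug pump on the list of other platinum carriers, was named after its values were seen. It measured 7.92 and 8.29 in siCtl cells with vehicle, 9.14 and 9.30 in siNCoR cells and 8.90 and 9.03 in siSMRT cells. With CDDP it measured 8.08 and 8.22, 8.93 and 9.13, and 8.59 and 8.92 in the same order. All 8 arrays with a co-repressor siRNA lay above all 4 siCtl arrays, and the share of all genes that did so was not counted. Against siCtl it was higher by 1.11 ± 0.15 with siNCoR and by 0.86 ± 0.15 with siSMRT in vehicle (limma, adjusted p = 0.00141 and 0.00293), and by 0.88 and 0.60 with CDDP (adjusted p = 0.00473 and 0.0155). Of all genes, 5.26% (siNCoR) and 15.8% (siSMRT) were called against siCtl in vehicle, and 6.60% and 17.3% with CDDP. The CDDP changes of ABCB1 within an siRNA were 0.04, -0.19 and -0.21, none called. In the 4 comparisons with siCtl it was the one gene of its list called higher.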
